A study of Mus musculus with 27 samples.

Results

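Mouse chromosomes 8 and 12 were examined in medulloblastoma DNA because their array ratios stood slightly above those of most other autosomes in 1 tumour each, chromosome 8 in the resistant tumour at 40 mg/kg/day and chromosome 12 in the resistant tumour at 80 mg/kg/day. The members are the probes that the scanner files place on either chromosome (positions on mouse build mm8), control spots left out. They numbered 11524 spots on chromosome 8 and 10343 on chromosome 12, together 21867 of 238202 non-control spots. After spots flagged as outliers were left out and repeat spots averaged, 11362 probes of chromosome 8 and 10224 of chromosome 12 remained, of 233011 in all. The members were chosen by their measured chromosome medians at those doses, so these medians are given below as a description and were not tested. The measured values bear out the working name for chromosome 8. With the scanner's own background subtraction they go against it for chromosome 12, whose first 10.6 Mb of covered sequence were not raised. With normexp, another background correction, the mean over probes of that stretch was 0.059 above vehicle, a value not set against other autosomes.

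DNA from 6 tumours was compared, each on its own whole-genome Agilent array for comparative genomic hybridization, a method that sets tumour DNA in one dye (Cy5) against reference DNA in another (Cy3). The reference on all 6 arrays was the same wildtype mouse liver sample. All 6 tumours were Ptch+/-p53-/- medulloblastoma grown as allografts in nude mice, so the loss of p53 and the altered Ptch allele are carried by the controls too. The 3 vehicle tumours came from mice given vehicle for 26 days and are labelled sensitive. The 3 resistant tumours, 1 each at 40, 80 and 160 mg/kg/day (bid), had grown under NVP-LDE225, an inhibitor of the Hedgehog receptor protein Smoothened, and were harvested at day 26. The tumour at 160 mg/kg/day is called vehicle in its title and source name, though the title also gives the dose. Its characteristics call it resistant, with drug and dose. It is placed here by its dose. With 1 tumour per dose no difference at a dose could be checked against a replicate, and the spread given is that of the 3 vehicle tumours, which may or may not come from separate mice.

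In array hybridization, the log2 ratio of tumour to reference signal follows the number of copies of a stretch of DNA, averaged over every cell in the sample. A ratio raised along a chromosome can come from an extra copy in all cells or in some of them, and the share of cells and the number of copies cannot be told apart from a ratio alone, nor can normal host cells mixed into the tumour. Loss of p53 is known to let cells with abnormal chromosome numbers survive, and medulloblastoma that arises in Ptch-mutant mice depends on the Hedgehog pathway, in which Ptch1 restrains Smoothened and the Gli transcription factors switch on target genes. Hhip, a membrane protein that binds Hedgehog ligands and is itself a Gli target, lies on chromosome 8, and Mycn, a growth-promoting transcription factor downstream of the pathway, lies near the start of chromosome 12.

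To show the loci that serve as landmarks, the promoters of 3 genes are printed from RefSeq on GRCm38.p6, a later build than that of the probes, as 250 bases before to 50 after the transcription start. Hhip stands for raised chromosome 8 (chr8:80057959-80058258, minus strand), Mycn for the unraised start of chromosome 12 (chr12:12941787-12942086, minus strand), and Numb, an adaptor protein that promotes Gli breakdown, for the raised rest of chromosome 12 (chr12:83921885-83922184, minus strand). Capitals would mark GACCACCCA, the binding motif of Gli proteins, or its reverse complement TGGGTGGTC.
Hhip: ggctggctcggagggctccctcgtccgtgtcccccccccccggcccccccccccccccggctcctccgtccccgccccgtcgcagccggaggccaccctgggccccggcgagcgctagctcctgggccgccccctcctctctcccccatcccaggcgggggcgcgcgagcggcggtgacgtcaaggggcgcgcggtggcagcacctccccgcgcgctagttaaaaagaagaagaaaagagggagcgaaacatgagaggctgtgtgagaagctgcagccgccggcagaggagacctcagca
Mycn: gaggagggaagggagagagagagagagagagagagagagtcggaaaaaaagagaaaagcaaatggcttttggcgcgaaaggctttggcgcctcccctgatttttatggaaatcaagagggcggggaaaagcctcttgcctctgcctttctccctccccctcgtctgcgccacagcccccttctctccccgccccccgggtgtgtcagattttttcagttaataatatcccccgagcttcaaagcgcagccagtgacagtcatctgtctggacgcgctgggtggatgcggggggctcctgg
Numb: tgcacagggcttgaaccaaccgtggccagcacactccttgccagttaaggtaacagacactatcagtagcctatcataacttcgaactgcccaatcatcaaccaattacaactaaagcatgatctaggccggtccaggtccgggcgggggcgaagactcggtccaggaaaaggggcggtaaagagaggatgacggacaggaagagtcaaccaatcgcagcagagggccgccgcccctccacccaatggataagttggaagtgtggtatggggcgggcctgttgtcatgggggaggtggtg
None of the 3 windows held the motif, which was found in 0.253% of 32851 promoters of this length (83 promoters). This says only that these letters are not in these windows. The probe sequences themselves were not used here.

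Chromosome 8 was raised in the tumour at 40 mg/kg/day only. Each array's log2 ratios were centred on the median of its autosomal probes, so 0 stands for the typical autosomal level. The median of chromosome 8 was -0.014, -0.029 and -0.025 in the vehicle tumours (mean -0.023 ± 0.0080, SD, n = 3), and with drug it was 0.23 at 40, -0.047 at 80 and -0.034 at 160 mg/kg/day. The tumour at 40 mg/kg/day thus lay 0.25 above the vehicle mean, and the other 2 resistant tumours lay slightly below the vehicle range. In that same tumour the other 18 autosomes differed from the vehicle mean by -0.20 (chromosome 10) to 0.010 (chromosome 3), with a median of -0.019, so chromosome 8 ranked 1 of 19.

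Chromosome 12 was raised in the tumour at 80 mg/kg/day by a smaller amount. Its median was -0.0046, -0.0050 and -0.0033 in the vehicle tumours (mean -0.0043 ± 0.00088, SD, n = 3), and with drug -0.020 at 40, 0.11 at 80 and -0.0085 at 160 mg/kg/day. The difference of 0.11 from the vehicle mean ranked 2 of 19 in that tumour, after chromosome 16 at 0.23 and close to chromosome 2 at 0.097 and chromosome 15 at 0.092. The lowest autosome there was chromosome 19 at -0.44, and the median of the other 18 was -0.022. Chromosome 12 was therefore one of several raised autosomes in the tumour at 80 mg/kg/day, whereas at 40 mg/kg/day no autosome but chromosome 8 differed from vehicle by more than 0.010 upwards. With normexp background correction in place of the scanner's own, the chromosome 12 difference was 0.033, and chromosome 6 was lower on that array too, at 0.15.

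**Figure D1:**
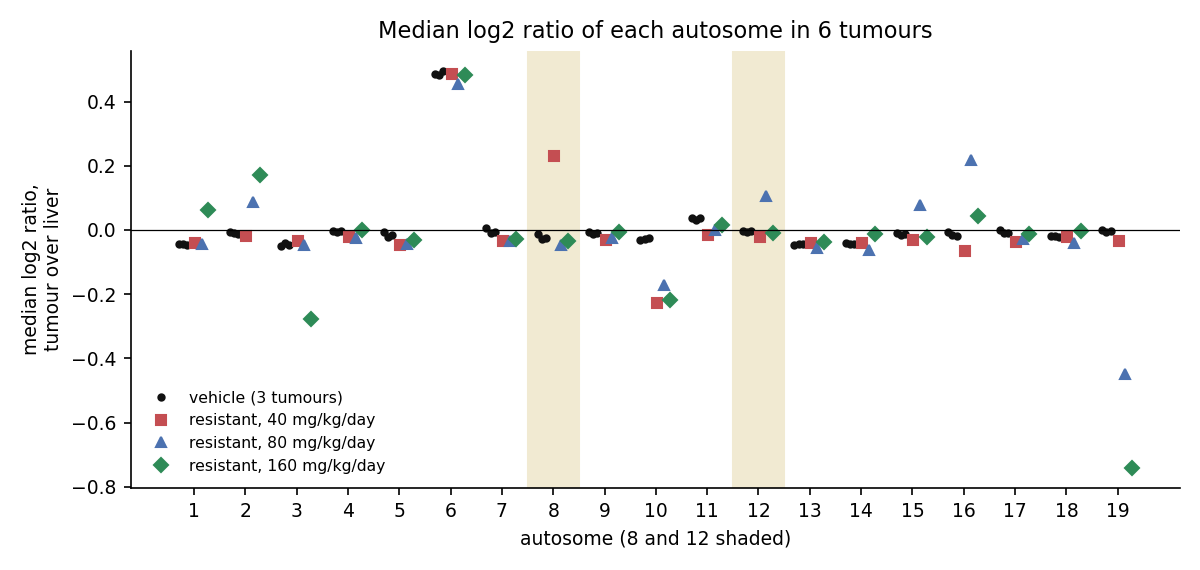
Median log2 ratio of tumour over liver for each of the 19 autosomes; black circles are the 3 vehicle tumours and coloured symbols the resistant tumours, 1 per dose. Chromosome 8 stands at 0.23 in the tumour at 40 mg/kg/day and chromosome 12 at 0.11 in the tumour at 80 mg/kg/day, both shaded, with the other 5 tumours near 0 on each.

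The shifts lay in the tumour dye. For chromosome 8 at 40 mg/kg/day, the median log2 signal of the tumour channel, centred on autosomes, was 0.28 above the vehicle mean (vehicle SD 0.0048, n = 3), and that of the liver channel differed by -0.0048 (vehicle SD 0.0035, n = 3). For chromosome 12 at 80 mg/kg/day, the tumour channel was 0.12 above the vehicle mean (vehicle SD 0.0047, n = 3) and the liver channel differed by -0.0077 (vehicle SD 0.0041, n = 3). The liver channel carries the same DNA on every array and covers its own dye only; differences between arrays in the tumour dye were not tested.

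Chromosome 6, which was raised in all 6 tumours (median log2 ratio 0.45 to 0.50), gave a scale on each array. At 40 mg/kg/day the linear excess of chromosome 8 over the autosomal level was 17.3%, which is 43.1% of the 40.1% excess of chromosome 6 in that tumour. At 80 mg/kg/day chromosome 12 had an excess of 7.59%, which is 20.5% of chromosome 6's 37.0%. The raised part of chromosome 12 alone had an excess of 8.58%, or 23.2% of that of chromosome 6. Both excesses were thus less than that of chromosome 6 on the same array, and a reading as a share of cells would need the copy number of each chromosome, which was not measured.

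Along chromosome 8 the rise at 40 mg/kg/day had no gap among the window means. In windows of 1 Mb with at least 5 probes, the tumour at 40 mg/kg/day was above the highest vehicle tumour in 128 of 128 windows, against 49.0% of 2396 autosomal windows in the same tumour. It was the highest of all 6 tumours in 128 of 128 windows, against 22.4% of autosomal windows. With each array corrected for probe brightness, both counts were again 128 of 128, against 47.9% and 29.0%. With medians over the probes of a window in place of means, 127 of 128 were above the highest vehicle tumour. For that setting no autosomal share is given. The rule that chose the chromosome used this contrast, so the counts show only how far along the chromosome the shift reaches. Window differences from the vehicle mean ran from 0.13 to 0.48 with a median of 0.29, and against the mean of the other 2 resistant tumours from 0.21 to 0.36 with a median of 0.28. In blocks of 10 Mb the difference from vehicle ran from 0.19 to 0.36 over 14 blocks. At 80 and 160 mg/kg/day, 42 and 75 of the 128 windows were above the highest vehicle tumour against 37.7% and 57.7% of autosomal windows, and 57 and 38 were below the lowest, against 43.4% and 32.0%.

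On chromosome 12 the rise at 80 mg/kg/day began inside the chromosome. The tumour at 80 mg/kg/day was above the highest vehicle tumour in 108 of 116 windows, against 37.7% of 2396 autosomal windows, and highest of 6 in 104 of 116, against 11.5%. With the brightness correction the counts were 107, against 36.2%, and 102, against 12.8%. Most of the windows that were not raised lay together at its start. In blocks of 10 Mb, the difference from the vehicle mean was -0.017 in the first block and 0.049 in the second, and every later block was between 0.090 and 0.16. At 40 and 160 mg/kg/day, 52 and 71 of the windows were above the highest vehicle tumour, against 49.0% and 57.7% of autosomal windows, and 45 and 31 were below the lowest, against 38.4% and 32.0%.

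**Figure D2:**
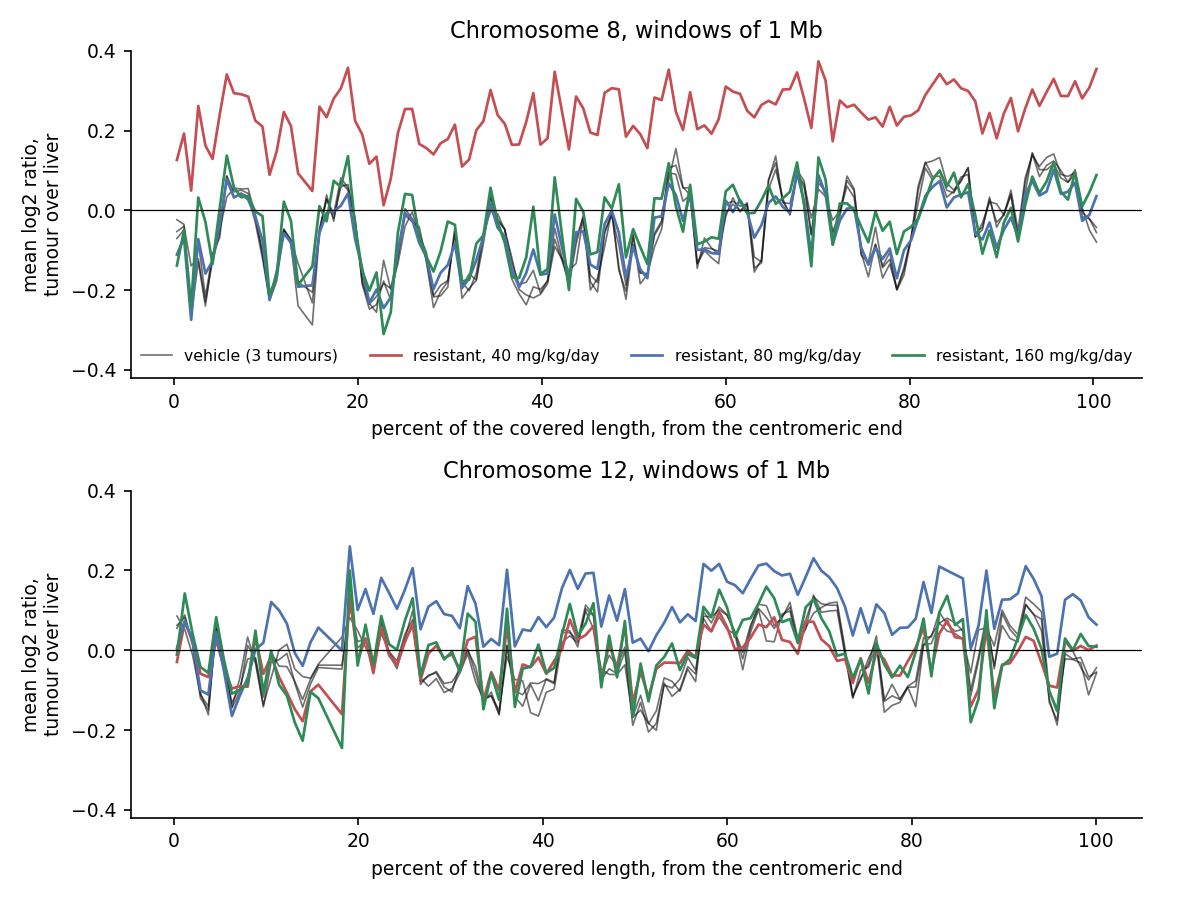
Mean log2 ratio of tumour over liver in windows of 1 Mb along chromosome 8 (top) and chromosome 12 (bottom), with position as percent of the covered length; thin black lines are the 3 vehicle tumours and coloured lines the resistant tumours. The line for 40 mg/kg/day runs above the other 5 along all of chromosome 8, and the line for 80 mg/kg/day parts from the others on chromosome 12 only some way in from the left edge.

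A least-squares search for 1 step in the difference from the vehicle mean placed it between the probes that start at 13700855 and 13727461 on chromosome 12 (mm8). The 922 probes before it, over 10.6 Mb, had a mean difference of -0.013 ± 0.20 (SD over probes), and the 9302 probes after it, over 106.7 Mb, had a mean of 0.13 ± 0.19 (SD over probes), a step of 0.14. Set against the other 2 resistant tumours in place of the vehicle tumours, the step was also 0.14 and lay between 13818987 and 13858335. Against all other 5 tumours it was 0.14, between 13858335 and 13900766. With normexp background correction the step was 0.038 at the position found, with means over probes of 0.059 before and 0.097 after it. The normexp difference of 0.033 for the whole chromosome is a median, so it cannot be set beside these means. A new search with normexp then chose a place elsewhere on the chromosome, with a step of -0.032. The same search on chromosome 12 of the other 5 tumours, and on chromosome 8 of all 6, gave best steps of at most 0.057 in size, the largest on chromosome 8 at 40 mg/kg/day, with 0.30 before and 0.24 after position 72551374.

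The 2 sides of the position found against vehicle can be read tumour by tumour. The search chose that position from these same values at 80 mg/kg/day, so the contrast of the sides there is a description and was not tested. Before the step the median log2 ratio of chromosome 12 was -0.017, -0.020 and -0.0072 in the vehicle tumours, and -0.038, -0.034 and -0.027 at 40, 80 and 160 mg/kg/day. All 3 resistant tumours lay slightly below the vehicle tumours there, and the tumour at 80 mg/kg/day lay between the other 2. After the step the medians were -0.0036, -0.0034 and -0.0030 in the vehicle tumours, and -0.019, 0.12 and -0.0076 at 40, 80 and 160 mg/kg/day. Only the tumour at 80 mg/kg/day stood apart, by 0.12 from a vehicle mean of -0.0033 ± 0.00030 (SD, n = 3). It was above the highest vehicle tumour in 3 of 10 windows before the step and in 104 of 105 after it, and highest of 6 in 0 of 10 and 104 of 105. In the tumour channel the difference from vehicle was -0.013 before and 0.13 after the step (vehicle SD 0.0078 and 0.0045, n = 3), and in the liver channel it was -0.015 before and -0.0065 after it.

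**Figure D3:**
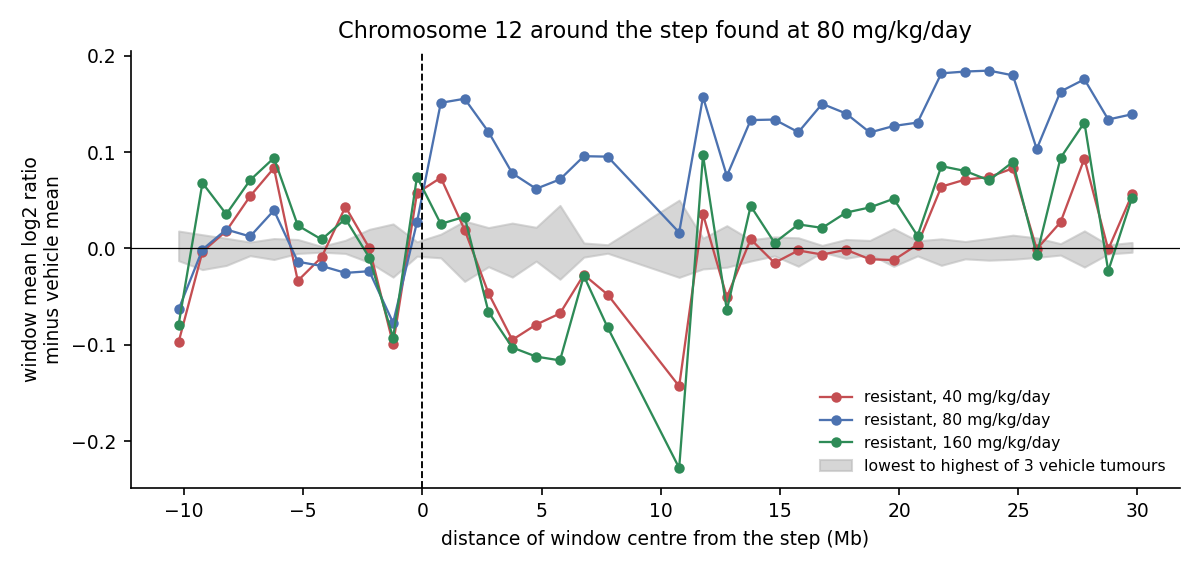
Difference of each window of 1 Mb from the vehicle mean, in log2 units, against its distance from the step on chromosome 12; lines are the resistant tumours, and the grey band spans the 3 vehicle tumours. The 3 resistant tumours run together before the step, and after it the tumour at 80 mg/kg/day lies above the other 2 in every window drawn.

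Genes close to the step were looked up after their values were seen. The position used is that of the step search, and segmentation of the array by itself placed the break further along, as given below. Before it lie Ddx1, an RNA helicase gene with 3 probes, then the transcripts BC072598 with 35 probes (first start 13354786, last 13604747) and AK039641 with 2. At 80 mg/kg/day their means differed from vehicle by 0.064, 0.011 and 0.12. The first 5 named transcripts after it have 1 probe each, with differences of 0.26, -0.045, -0.13, 0.35 and 0.45, so the single probes beside the step went both ways. Mycn, which neighbours Ddx1, had 1 probe, at 12964272, before the step. Its log2 ratios were 0.099, 0.0055 and 0.057 in the vehicle tumours and -0.080, -0.070 and -0.19 at 40, 80 and 160 mg/kg/day, so that probe was not high in the tumour at 80 mg/kg/day. It is a bright probe, and after the brightness correction it read 0.099, 0.087 and 0.12 with vehicle, then 0.086, 0.074 and 0.059 from the lowest to the highest dose, a difference of -0.028 at 80 mg/kg/day in place of -0.12. A single probe carries no replicate of its own, and the wider stretch before the step is the firmer measurement.

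Penalised segmentation of each array by itself, with 3 times the usual penalty, described the same levels. At 80 mg/kg/day chromosome 12 fell into 2 segments, the longer of 105.8 Mb with a mean of 0.13. That segment began at 14679430, further along than the step search had placed the step. After the brightness correction the first break lay further still, between 15443651 and 15460277, so the place of the step depended on the method. At 40 mg/kg/day chromosome 8 fell into 2 segments, of 66.6 Mb with a mean of 0.21 and of 62.4 Mb with a mean of 0.27. None of these reached the call level of 0.3 in size, so this segmentation called no segment on chromosome 8 or 12 in a resistant tumour. After the brightness correction it called 1 there, a loss of 9 probes on chromosome 8 at 40 mg/kg/day (-0.48, from 22521623 to 23016260). Vehicle arrays, which had less probe noise, were cut into 31, 16 and 23 segments on chromosome 8 and 14, 6 and 11 on chromosome 12. After the vehicle mean was taken off, chromosome 12 at 80 mg/kg/day fell into exactly 2 segments, with means of -0.013 and 0.13. Chromosome 8 at 40 mg/kg/day fell into 7, with means of 0.16 to 0.37, of which 3 passed the call level as gains (0.35, 0.32 and 0.37). These began at 50284159, 75667056 and 98909218. Vehicle tumour 3 had segments from 49782148, 75635911 and 98936728 with means of -0.12, -0.061 and -0.13, so the gains lay where the subtracted profile was low.

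With each array segmented by itself and uncorrected, the only segment called on either chromosome was a short loss on chromosome 8 in each of the 3 vehicle tumours, at -0.62 (13 probes), -0.44 (22 probes) and -0.50 (19 probes). Its shared probes run from 22521623 to 23199442 and carry the gene name U73623. Over these 13 probes the mean was -0.62, -0.64 and -0.69 in the vehicle tumours and -0.47, -0.65 and -0.65 at 40, 80 and 160 mg/kg/day. The stretch was thus low in all 6 tumours against the liver DNA, and at 40 mg/kg/day it lay 0.18 above the vehicle mean (vehicle SD 0.037, n = 3). After the brightness correction the vehicle tumours read -0.63, -0.54 and -0.61, and the tumours at 40, 80 and 160 mg/kg/day read -0.24, -0.46 and -0.31, so that all 3 of the latter were then less low. Single probes can stand far from their neighbours: a probe of the cadherin gene Cdh13 at 122049306 on chromosome 8 read 4.34 at 80 mg/kg/day and below 1 in the other 5 tumours, and such probes, printed once per array, were not read as changes in copy number.

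The size of both shifts depended on how bright a probe was, and so did the ratios of the 17 autosomes other than 8 and 12. From the brightest to the dimmest probes the median ratio over those autosomes rose by -0.0020, 0.32 and 0.24 in the vehicle tumours and by 0.63, 0.53 and 0.96 at 40, 80 and 160 mg/kg/day, with each autosome between 0.50 and 1.00 on the resistant arrays. Probes were split into 4 equal groups by their liver signal over the 6 arrays. For chromosome 8 at 40 mg/kg/day the median difference from vehicle was 0.49, 0.35, 0.22 and 0.051 from the dimmest to the brightest group. On the 17 autosomes other than 8 and 12 in that tumour it was 0.21, 0.060, -0.069 and -0.23. The gap between chromosome 8 and those autosomes was 0.28, 0.29, 0.29 and 0.28. For chromosome 12 after the step at 80 mg/kg/day the differences were 0.30, 0.19, 0.079 and -0.046 against 0.16, 0.048, -0.060 and -0.19 on the other autosomes. The gap was 0.14, 0.15, 0.14 and 0.14. Within each brightness group both chromosomes therefore stood above the rest of the genome by nearly the same amount.

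**Figure D4:**
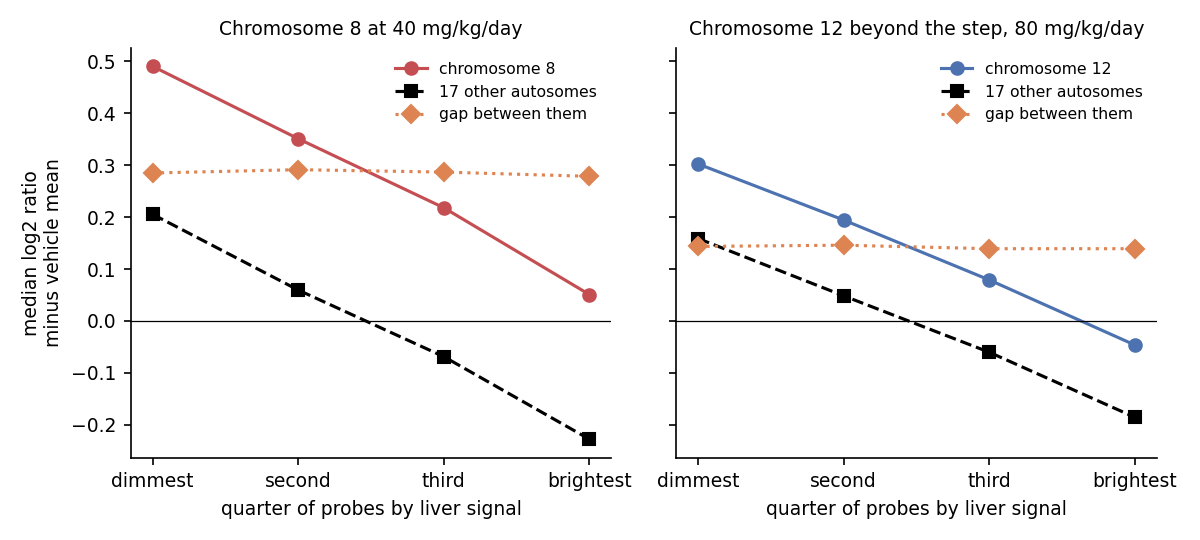
Median log2 difference from the vehicle mean in 4 equal groups of probes by liver signal, for chromosome 8 at 40 mg/kg/day (left) and chromosome 12 after the step at 80 mg/kg/day (right); squares are the 17 autosomes other than 8 and 12. Both lines fall with brightness, and the gap between them, drawn as diamonds, stays at 0.28 to 0.29 on the left and 0.14 to 0.15 on the right.

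A correction for brightness, chosen after this pattern was seen, took off each array's median ratio in 50 bins of liver signal over the 17 other autosomes. It brought the noise between neighbouring probes of chromosome 8 at 40 mg/kg/day from 0.33 to 0.20 and that of chromosome 12 at 80 mg/kg/day from 0.27 to 0.17. The difference of chromosome 8 at 40 mg/kg/day was then 0.26 and that of chromosome 12 at 80 mg/kg/day 0.12, and the step on chromosome 12 was 0.14, between 13818987 and 13858335. After the correction the excess was 45.2% of that of chromosome 6 for chromosome 8 and 21.7% for chromosome 12. Probes in named genes and outside them differed little, with 0.26 and 0.26 for chromosome 8 and 0.12 and 0.11 for chromosome 12 after the step, before the correction.

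Gene values are means over the probes of a gene, and for genes with few probes they carry the brightness of those probes. Of 690 genes on chromosome 8 with at least 3 probes, 635 were above the highest vehicle tumour at 40 mg/kg/day, against 34.6% of 13008 autosomal genes, and 628 were highest of 6, against 11.2%. With the brightness correction there were 669, against 27.8%, and 667, against 13.8%. Of 508 genes on chromosome 12, 394 were above the highest vehicle tumour at 80 mg/kg/day, against 33.2% of autosomal genes, and 305 were highest of 6, against 9.19%. With the correction there were 407, against 29.8%, and 387, against 12.8%. The median gene difference was 0.25 on chromosome 8 and 0.11 on chromosome 12, against -0.013 and -0.012 over all autosomal genes in the respective tumours. These counts restate the chromosome shift gene by gene, since the choice of chromosomes used the same values.

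Hedgehog pathway and cilium genes were described first, since the drug acts on that pathway and Hedgehog signals pass through the primary cilium. Counts of listed genes, here and below, stand beside 92.0% of all genes above the highest vehicle tumour on chromosome 8 and 77.6% on chromosome 12. All 3 with enough probes on chromosome 8 were above the highest vehicle tumour at 40 mg/kg/day. Hhip, between 82868058 and 82952247, had 12 probes with means of -0.040, -0.020 and -0.080 in the vehicle tumours and 0.27, -0.031 and -0.20 at 40, 80 and 160 mg/kg/day. Only the tumour at 40 mg/kg/day was above the vehicle range, by 0.32 ± 0.055 from the vehicle mean (SE over probes), or 0.30 ± 0.036 after the correction. Bbs2, a component of the complex that carries proteins into the cilium, differed by 0.37 ± 0.091, or 0.32 ± 0.021 corrected. Prkaca, the catalytic subunit of protein kinase A, which holds Gli proteins in check, differed by 0.11 ± 0.12, or 0.15 ± 0.091 corrected. The uncorrected amount was no larger than its SE over 5 probes. Such an SE covers the spread of probes in these arrays and not that between tumours.

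The 5 genes of that list on chromosome 12 fell on both sides of the step. Wdr35, which encodes a ciliary transport protein, and Kif3c, a kinesin motor gene, lie before it. They differed from vehicle at 80 mg/kg/day by -0.11 ± 0.060 and -0.010 ± 0.061 (SE over probes), and after the brightness correction by -0.11 ± 0.037 and -0.082 ± 0.075. Wdr35 was low in all 3 resistant tumours, at 0.019, 0.0091 and 0.037 at 40, 80 and 160 mg/kg/day against a vehicle mean of 0.12. Ttc8, Spata7 and Numb lie after it and were above the highest vehicle tumour. Numb, between 84691061 and 84728941, had 6 probes with means of 0.096, 0.18 and 0.12 in the vehicle tumours and 0.24, 0.33 and 0.35 at 40, 80 and 160 mg/kg/day. All 3 resistant tumours were above the vehicle range for Numb, with the tumour at 160 mg/kg/day highest. After the correction the tumour at 80 mg/kg/day was the highest, at 0.29 against 0.20 and 0.26.

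Among growth factor and oncogene loci on chromosome 8, 5 of 5 with enough probes were above the highest vehicle tumour at 40 mg/kg/day. Vegfc, a growth factor of lymphatic vessels, differed by 0.45 ± 0.068 over 15 probes, Smad1, a transducer of BMP signals, by 0.35 ± 0.14 over 7, and the receptor gene Fgfr1 by 0.29 ± 0.081 over 7. Gab1, an adaptor of receptor kinases, and Ikbkb, a kinase of the NF-kappaB pathway, had the smallest differences, 0.16 ± 0.065 and 0.20 ± 0.067. On chromosome 12, 4 of 8 were above the highest vehicle tumour at 80 mg/kg/day. Hif1a, the oxygen-regulated transcription factor, differed by 0.22 ± 0.071 over 6 probes, and Traf3, an adaptor of immune receptors, by 0.19 ± 0.062 over 16. Fos and Tgfb3, with 3 probes each, differed by -0.013 ± 0.054 and 0.0097 ± 0.032, and Esr2 by -0.088 ± 0.061 over 8 probes, or 0.0060 ± 0.058 corrected.

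Of the genes of cell cycle, tumour suppression and genome maintenance, 13 of 13 on chromosome 8 were above the highest vehicle tumour at 40 mg/kg/day. Wwox, a large gene in a fragile site, was measured by 118 probes between 117330386 and 118238127, with means of 0.032, -0.00025 and 0.016 in the vehicle tumours and 0.21, -0.062 and -0.10 at 40, 80 and 160 mg/kg/day. Its difference of 0.20 ± 0.022 at 40 mg/kg/day had the smallest SE of the listed chromosome 8 genes, and was 0.22 ± 0.013 corrected. E2f4, a repressive cell cycle transcription factor with 4 dim probes, had the highest difference of the lists, 0.50 ± 0.057, which was 0.34 ± 0.060 corrected. On chromosome 12, 6 of 7 were above the highest vehicle tumour. Dicer1, which cuts microRNA precursors, differed by 0.15 ± 0.039 and the recombination gene Rad51l1 by 0.11 ± 0.022 over 70 probes. The exception was Dnmt3a, a DNA methyltransferase gene before the step, at -0.12 ± 0.044. It read -0.078, 0.0022 and -0.091 at 40, 80 and 160 mg/kg/day against a vehicle mean of 0.12, so the tumour at 80 mg/kg/day was the highest resistant tumour there.

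Neural genes include some of the longest on the arrays. On chromosome 8, 6 of 6 were above the highest vehicle tumour at 40 mg/kg/day. Unc5d, a netrin receptor gene with 71 probes between 30118907 and 30683872, had means of -0.23, -0.24 and -0.25 in the vehicle tumours and 0.13, -0.23 and -0.18 at 40, 80 and 160 mg/kg/day. It thus lay below 0 in 5 tumours and above 0 in 1, by 0.37 ± 0.024 from the vehicle mean. Cdh8, a cadherin of neurons, and Gpm6a, a neuronal membrane glycoprotein, differed by 0.46 ± 0.053 and 0.48 ± 0.070.

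On chromosome 12, 6 of 7 neural genes were above the highest vehicle tumour at 80 mg/kg/day. Nrxn3, a synaptic adhesion gene with 183 probes between 89471347 and 90737542, had means of -0.096, -0.082 and -0.097 in the vehicle tumours and -0.053, 0.074 and -0.051 at 40, 80 and 160 mg/kg/day. It was highest at 80 mg/kg/day, by 0.17 ± 0.012 from the vehicle mean, with the other 2 resistant tumours slightly above the vehicle range. Npas3, a neural transcription factor with 114 probes, differed by 0.14 ± 0.022. Bcl11b, a transcription factor of cortical neurons with 16 probes, differed by -0.017 ± 0.048 from the vehicle mean. It read 0.061 at 80 mg/kg/day against -0.068 and -0.050 at 40 and 160 mg/kg/day, so it stood above the other 2 resistant tumours.

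Over the 4 lists together, 27 of 27 measured genes on chromosome 8 were above the highest vehicle tumour at 40 mg/kg/day, against 92.0% of all 690 genes of that chromosome. Their median difference was 0.31, with a range of 0.096 to 0.50. On chromosome 12 it was 0 of 3 before the step and 19 of 24 after it, with medians of -0.11 and 0.13. On both sides together it was 19 of 27, against 77.6% of all 508 genes of chromosome 12, so the lists together were near the share of their chromosomes. The share of all genes is not given by side, so the counts by side have none beside them. Of the genes before the step, Wdr35 and Dnmt3a were below the vehicle tumours in all 3 resistant tumours. The 922 probes before the step had a mean difference of -0.013 at 80 mg/kg/day. The medians over all genes of each chromosome were 0.25 and 0.11. The neural list on chromosome 8 had a higher median, 0.41 (0.39 corrected), above the upper quartile of 0.33 over all genes of that chromosome (0.31 corrected). This difference is from vehicle means, which were -0.24, -0.16, -0.13 and -0.10 for Unc5d, Cdh8, Cdh11 and Gpm6a. They were 0.20 and 0.083 for Nfix and Calb2, and -0.023 for the whole chromosome. At 80 mg/kg/day Unc5d, Cdh8, Cdh11 and Gpm6a read -0.23, -0.076, -0.0056 and 0.036, and Nfix and Calb2 0.11 and 0.087. At 160 mg/kg/day they read, in that order, -0.18, 0.052, 0.075, 0.19, 0.10 and 0.047. Over all genes of chromosome 8, the median difference from the mean of the other 2 resistant tumours was 0.26. The genes of the list were few, and as a list they were neither tested nor summarised against those tumours. The same 27 of 27, 0 of 3 and 19 of 24 were counted after the brightness correction. The shares of all genes were then 97.0% on chromosome 8 and 80.1% on chromosome 12, both sides of the step together.

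**Figure D5:**
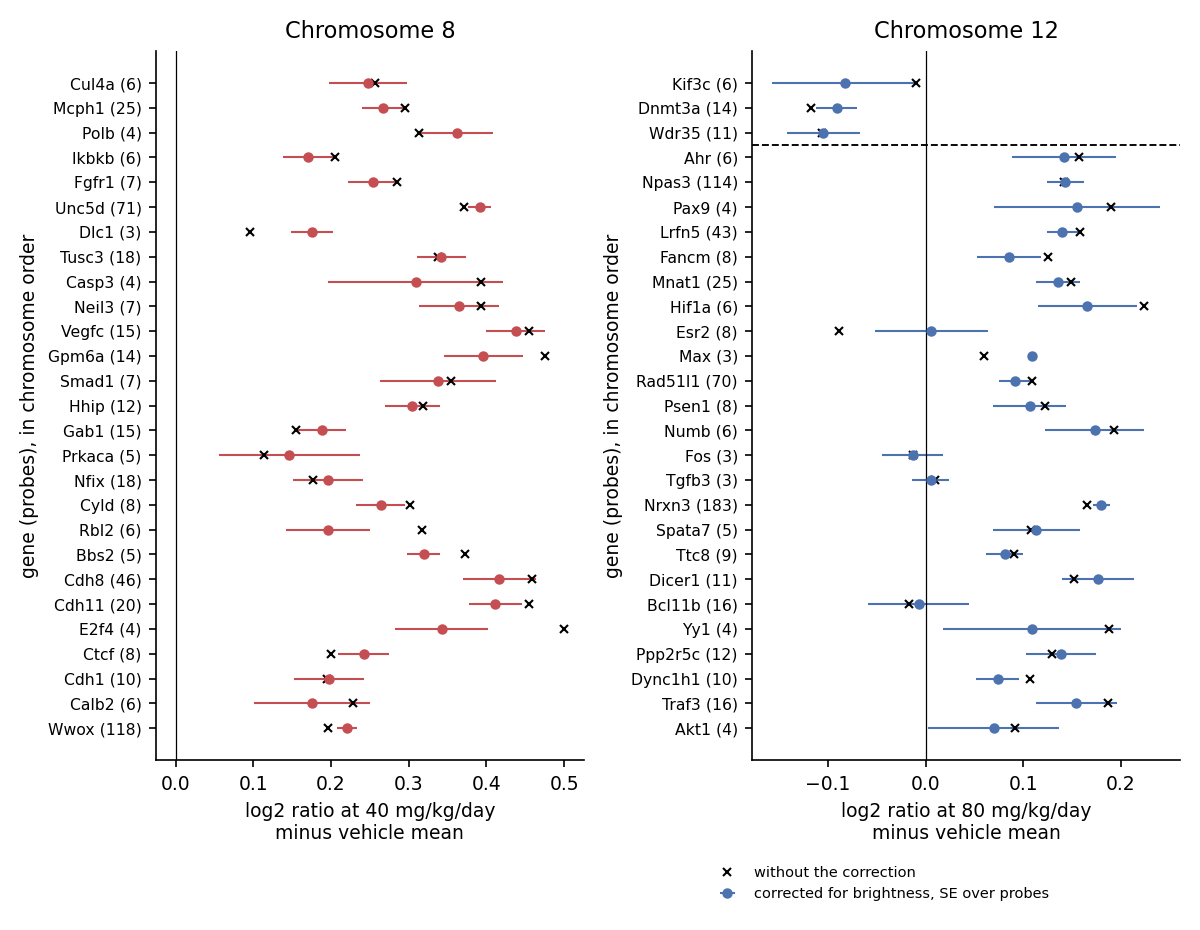
Difference from the vehicle mean, in log2 units, of each listed gene with at least 3 probes, in chromosome order, at 40 mg/kg/day for chromosome 8 (left) and 80 mg/kg/day for chromosome 12 (right); dots and bars are brightness-corrected means with their SE over probes, crosses the values without it, and the dashed line marks the step. All 27 genes on chromosome 8 lie above 0, and the 3 genes before the step on chromosome 12 lie below 0 while most of the 24 after it lie above.

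Set as groups, the 3 resistant and the 3 vehicle tumours were compared over all 2548 windows of the genome with limma, a linear model with moderated variances, and Benjamini-Hochberg adjustment. On chromosome 8, 0 of 128 windows had an adjusted p below 0.05 and 3 had an unadjusted p below 0.05. On chromosome 12, 2 of 116 windows were higher and 1 lower in resistant tumours, against 0.589% of all windows higher and 5.81% lower, and 33 had an unadjusted p below 0.05, against 28.6% of all windows, so chromosome 12 was near the share of the genome. The shift on each chromosome was carried by 1 of the 3 resistant tumours, and the doses were not replicated. Without the tumour at 40 mg/kg/day 9 windows of chromosome 8 passed and 11 of chromosome 12, and without the tumour at 80 mg/kg/day 1 and 21. Without the tumour at 160 mg/kg/day 0 and 1 passed, and without any one vehicle tumour none on either. For these counts neither the direction nor the share of all windows is given, so they cannot be read as a result about either chromosome. These p-values measure only the spread between these tumours, which may be technical. They also rest on the tumours at 40 and 80 mg/kg/day, whose levels chose these chromosomes, so no conclusion is drawn from the windows that passed. The median window difference between the groups was 0.10 on chromosome 8 with a median SE of 0.082, and 0.050 on chromosome 12 with a median SE of 0.037.

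The precision behind these values differed between arrays. The SD of a probe judged from its neighbours was 0.13, 0.20 and 0.18 in the vehicle tumours and 0.32, 0.28 and 0.46 at 40, 80 and 160 mg/kg/day. Of the probes on the 2 chromosomes, at least 99.96% were well above background in both channels on every array. Probes of chromosome 8 printed 3 times had a median SD of 0.045 to 0.063 between spots. As a check of the genotype, 3 probes of Trp53 had means of -0.040 to 0.25 and 7 probes of Ptch1 0.028 to 0.099 over the 6 tumours. Whether these probes lie in the altered parts of the genes is not known, so they check nothing.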

How the data were processed

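DNA from 6 tumours and a shared liver reference was measured on 2-colour arrays. Per the file headers, the authors extracted spot intensity values with Feature Extraction 9.5.3.1 on mm8 positions, with background subtraction and linear dye normalization; these processed intensities are linear, and a separate deposited table holds log10 ratios of the same arrays. From the intensities the log2 ratio of tumour over liver was computed, spots flagged as non-uniform or population outliers were left out, repeat spots were averaged, and each array was centred on its autosomal median. The deposited log10 ratios equalled the recomputed ones within 0.0001 for 99.4% of spots. No loess was used. Windows of 1 Mb needed 5 probes and genes 3 probes. Segments were found with a least-squares penalty 3 times the usual, and called at 0.3 over at least 5 probes. Windows were tested with limma 3.58.1 in R 4.3.3 (trended prior, two-sided, Benjamini-Hochberg over all windows); steps and segments were computed in Python 3.11.15, and the methods were tested on simulated data. All 6 arrays were scanned on 1 day, so there was no scan batch. Named genes were those of 4 lists with at least 3 probes, plus every called segment; the members and lists were chosen with earlier results of these data known. Alternatives were other centrings, normexp background correction with an offset of 50, the deposited table, stricter probe filters, other windows and penalties, each tumour left out and, chosen after seeing the data, the brightness correction and the comparison with resistant tumours. The 21 RNA arrays were not analysed here. The number of arrays limits the precision: each dose is 1 tumour.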

Additional observations from a re-analysis of the deposited data

How the results depend on the processing

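The chromosome 8 difference at 40 mg/kg/day (0.25) was 0.27 with means in place of medians, 0.28 and 0.29 with centring on the median of autosome medians and on the density peak, 0.21 with normexp, 0.26 corrected for brightness and 0.27 against the other 2 resistant tumours, and 0.25 to 0.26 with 1 vehicle tumour left out. The chromosome 12 difference at 80 mg/kg/day (0.11) was 0.12, 0.13, 0.13, 0.033, 0.12 and 0.12 in that order, and 0.11 throughout with 1 vehicle tumour left out. Normexp lowered chromosome 6 at 80 mg/kg/day too, to 0.15, where the excess of chromosome 12 was 23.7% of that of chromosome 6. With normexp the step on chromosome 12 was 0.038 at the position found, and a new search chose another place on the chromosome, with -0.032; the cause was not tested. The step was 0.14 in each other setting run, also with 1 vehicle tumour left out. Windows passing limma on chromosome 8 numbered 0 to 9 with 1 tumour left out (9 without the tumour at 40 and 1 without that at 80 mg/kg/day), and on chromosome 12 0 to 21 (21 without the tumour at 80, 11 without that at 40 and 1 without that at 160 mg/kg/day, and 0 without any one vehicle tumour), with 0 under normexp, without the trend and with array weights. The share of all windows that passed in these fits is not given. Steps within chromosome 8 at 40 mg/kg/day numbered 1, and 12 at the usual penalty, 0 at 6 times it and 5 after the brightness correction; within chromosome 12 at 80 mg/kg/day they numbered 1, 11, 1 and 6. Over all alternatives for the main results, those above included, 66 moved by less than the spread between vehicle tumours, or left a count of like size. Another 29 moved by more, and 1, the new step search with normexp, was reversed. No paired analysis was possible because each dose is 1 tumour and the groups share fewer than 2 replicate numbers. The planned correction for base composition was not run, since no probe sequences were used here, and the scan date was not used as a block, since 1 day holds all arrays.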
